A study of Mus musculus with 12 samples.

Results

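Fibroblast growth factor (FGF) signalling was described here through 10 genes, namely the receptors Fgfr1, Fgfr2 and Fgfr3, the ligands Fgf1, Fgf2, Fgf9 and Fgf15, and the feedback inhibitors Spry1, Spry2 and Spry4. The genes were chosen by symbol, and all 10 were found among the 24421 entries of the deposited table. FGF ligands bind receptor tyrosine kinases together with heparan sulfate, and the activated receptors signal through adaptors, Ras and the MAP kinases. The pathway switches on ETS transcription factors and its own inhibitors, among which are the Sprouty proteins. In the cerebellum, FGF8-type signals from the isthmus pattern the tissue before birth, FGF9 made by neurons acts on Bergmann glia, and Fgfr3 is a common marker of astrocytes.

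The RNA came from GFP-positive cells sorted from the cerebellum of Aldh1l1-GFP reporter mice of both sexes, kept on a C57/BL6J background without further treatment, at postnatal day 1 (P1), P7, P14 and P28. Each age had 3 libraries, 12 in all, and every group carried the same reporter, so the ages differed in no other labelled factor. GFP in these mice is driven by the regulatory region of Aldh1l1, a folate enzyme gene of astrocytes, and a sorted pool holds every cell in which that region is active. The labels call the replicates separate samples but do not tie them to separate animals or litters, so the p-values measure the spread between these libraries, which may be partly technical.

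Reads on genes ranged from 6399499 to 14733985 per library, with the lowest total in P7 replicate 2. A value below is a normalized count, the reads of a gene divided by the size factor of the library. The cells are labelled as astrocytes, all 10 astrocyte markers examined were tested and none was at 0 in every library, and their summed normalized count was 60630 to 77030 at P1, then 29690 to 55490 at P7, 171400 to 210500 at P14 and then 389700 to 458600 at P28. Markers of other cells were present too. Those of oligodendrocytes summed to 630.8 to 1488 at P1, then 19610 to 30750 at P7, 295200 to 355700 at P14 and then 92560 to 131800 at P28. Those of choroid plexus and ependyma were uneven within an age, and at P14 they ranged from 1041 in replicate 3 to 109400 in replicate 1. Because the libraries are bulk pools, fewer cells of a type and less RNA per cell cannot be told apart in any result below.

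**Figure D1:**
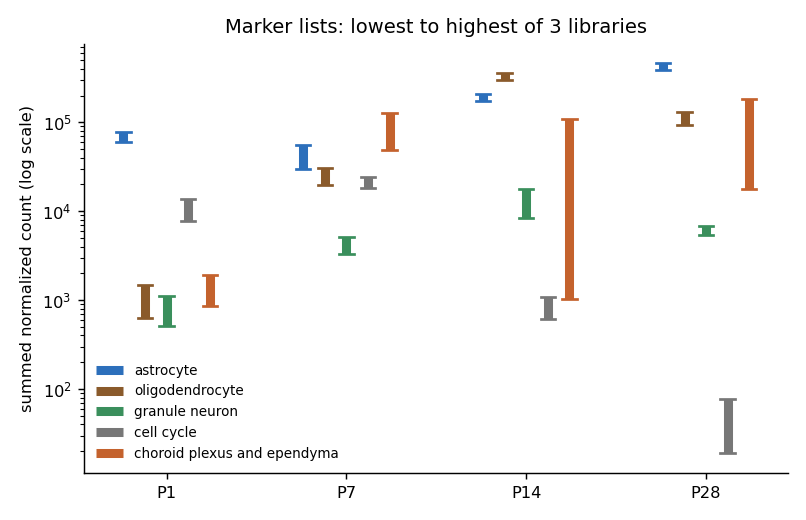
Summed normalized count of 5 marker lists (y axis, log scale) at each age (x axis). Each bar runs from the lowest to the highest of the 3 libraries. The astrocyte list was lowest at P7, with 29690 to 55490, the oligodendrocyte list was highest at P14, and the choroid plexus and ependyma list spread from 1041 to 109400 within P14.

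The regions just upstream of Fgfr3 and Fgfr2 are shown because these receptors had the lowest and the highest log2 difference of the 3 from P1 to P7, given below. Both sequences are RefSeq promoter windows on GRCm38.p6, the build that matches mm10, and run from 250 bases before to 50 bases after the annotated start. They are written 5′ to 3′ on the strand of the gene, with CG dinucleotides in capitals. The Fgfr3 window is chr5:33721474-33721773 on the plus strand and precedes a gene that lies at chr5:33721724-33737068. The Fgfr2 window is chr7:130266759-130267058 on the minus strand and precedes a gene that lies at chr7:130162451-130266808.
Fgfr3: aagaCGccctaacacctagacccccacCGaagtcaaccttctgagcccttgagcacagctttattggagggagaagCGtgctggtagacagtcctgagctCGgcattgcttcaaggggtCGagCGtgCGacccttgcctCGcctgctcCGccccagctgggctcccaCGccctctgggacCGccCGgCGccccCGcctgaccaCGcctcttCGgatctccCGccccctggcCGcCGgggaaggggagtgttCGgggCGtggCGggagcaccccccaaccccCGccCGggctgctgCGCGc
Fgfr2: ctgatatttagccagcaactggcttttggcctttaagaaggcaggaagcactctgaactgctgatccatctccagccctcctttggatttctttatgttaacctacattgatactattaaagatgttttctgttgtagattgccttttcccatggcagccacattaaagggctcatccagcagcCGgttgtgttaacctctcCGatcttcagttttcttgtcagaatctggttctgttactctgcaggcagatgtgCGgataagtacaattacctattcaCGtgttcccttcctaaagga

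The Fgfr3 window held 26 CG dinucleotides, and 84.5% of all 32851 mouse windows held at most that many. The Fgfr2 window held 4, and 38.0% of all windows held at most that many. A second Fgfr3 window, at chr5:33722056-33722355, held 30. Windows were found for 6 of the 10 genes, 7 in all. Among the others, Fgf9 had 12 CG dinucleotides, Fgf2 had 24, Spry2 had 28 and Spry1 had 29. The octamer TGAATGAA, which the repressor Capicua binds, was searched on both strands. It was in 0 of the 7 windows and in 1.3% of all windows. Fgfr1, Fgf1, Fgf15 and Spry4 had no entry. Each window covers 1 annotated start, while GENCODE M21 lists 27 transcripts of Fgfr2 and 17 of Fgfr3. The counts therefore describe these windows alone, and which starts these cells use was not tested.

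Fgfr1 and Fgfr3 were lowest at P7, Fgfr2 was low at both P1 and P7, and all 3 receptors had their highest mean at P28. Fgfr1, which in the brain is expressed in neurons as well as in glia, had normalized counts of 3192, 2719 and 2715 at P1 and of 1201, 849.4 and 1174 at P7. At P14 its counts were 1963, 2662 and 1415, and at P28 they were 3507, 3014 and 4184. All P7 libraries were below all P1 libraries, and each later age was above the one before it without overlap. Fgfr1 fell by 1.43 on the log2 scale from P1 to P7 (SE 0.22, limma adjusted p = 0.00121), a 2.67-fold lower mean. It rose by 0.87 from P7 to P14 (SE 0.22, limma adjusted p = 0.0112) and by 0.86 from P14 to P28 (SE 0.22, limma adjusted p = 0.0197). The P28 mean of 3568 ± 588 (SD, n = 3) overlapped the P1 values, with a log2 difference of 0.30, a 95% interval of -0.17 to 0.78 and a limma adjusted p of 0.309. That difference became -0.13 when libraries were scaled by their totals alone. Both increases lost their call without single libraries. From P7 to P14 the limma adjusted p was 0.0562 without P7 replicate 2 and 0.0638 without P14 replicate 2, within a range of 0.00194 to 0.0638 over all 23 alternatives. From P14 to P28 it was 0.0553 without P14 replicate 1, 0.0890 without P14 replicate 3 and 0.0552 without P28 replicate 3, within 0.00765 to 0.0980. An antisense transcript, Gm16159, shares 164 exon bases with Fgfr1, and its mean was between 15.4 and 32.2 at every age.

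Fgfr3, the receptor most used to mark astrocytes, had normalized counts of 4043, 2394 and 2258 at P1 and of 854.3, 386.1 and 485.2 at P7. Its counts at P14 were 2862, 2872 and 2186, and those at P28 were 4237, 4438 and 4691. P7 stood apart, with every library below every library of the other ages. Fgfr3 fell by 2.36 from P1 to P7 on the log2 scale (SE 0.27, limma adjusted p = 1.31e-04), a 5.04-fold lower mean. Between P7 and P14 it rose by 2.27 (SE 0.27, limma adjusted p = 3.93e-05), a 4.59-fold higher mean. Both of these calls held in all 23 alternatives. In the step from P14 to P28 the libraries did not overlap, but the log2 difference of 0.76 (SE 0.27, 95% interval 0.19 to 1.34) missed the threshold with a limma adjusted p of 0.0736. It passed at 0.0382 without P7 replicate 1, within a range of 0.0363 to 0.224 over the alternatives. The P28 libraries were also above all P1 libraries, by 0.67 on the log2 scale (SE 0.27, limma adjusted p = 0.0683). This difference passed at 0.0227 without P1 replicate 1, at 0.0320 without P7 replicate 1 and at 0.0485 without P7 replicate 2, within 0.0227 to 0.493.

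Fgfr2, a receptor of glia that is also found in the oligodendrocyte lineage, showed no dip that passed the test. Its normalized counts were 869.9, 760.9 and 428.6 at P1, and 686.3, 602.0 and 534.1 at P7. At P14 they were 1778, 2566 and 1412, and at P28 they were 3246, 3760 and 4721. The P1 and P7 values overlapped, and from P7 on each age was above the one before it. The log2 difference from P1 to P7 was -0.12 with a 95% interval of -0.70 to 0.46 (limma adjusted p = 0.902), and it was 0.081 without P1 replicate 1. Fgfr2 rose by 1.62 from P7 to P14 (SE 0.27, limma adjusted p = 6.59e-04) and by 1.05 from P14 to P28 (SE 0.27, limma adjusted p = 0.0197). The whole span from P1 to P28 was 2.55 (SE 0.27, limma adjusted p = 7.59e-06), a 5.69-fold higher mean. The last step gave 0.0632 without P14 replicate 1, 0.0916 without P14 replicate 3 and 0.0555 without P28 replicate 3, within 0.00460 to 0.0916. GENCODE M21 also lists a long Fgfr2 transcript model that shares 314 exon bases with Ctbp2 on the same strand.

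**Figure D2:**
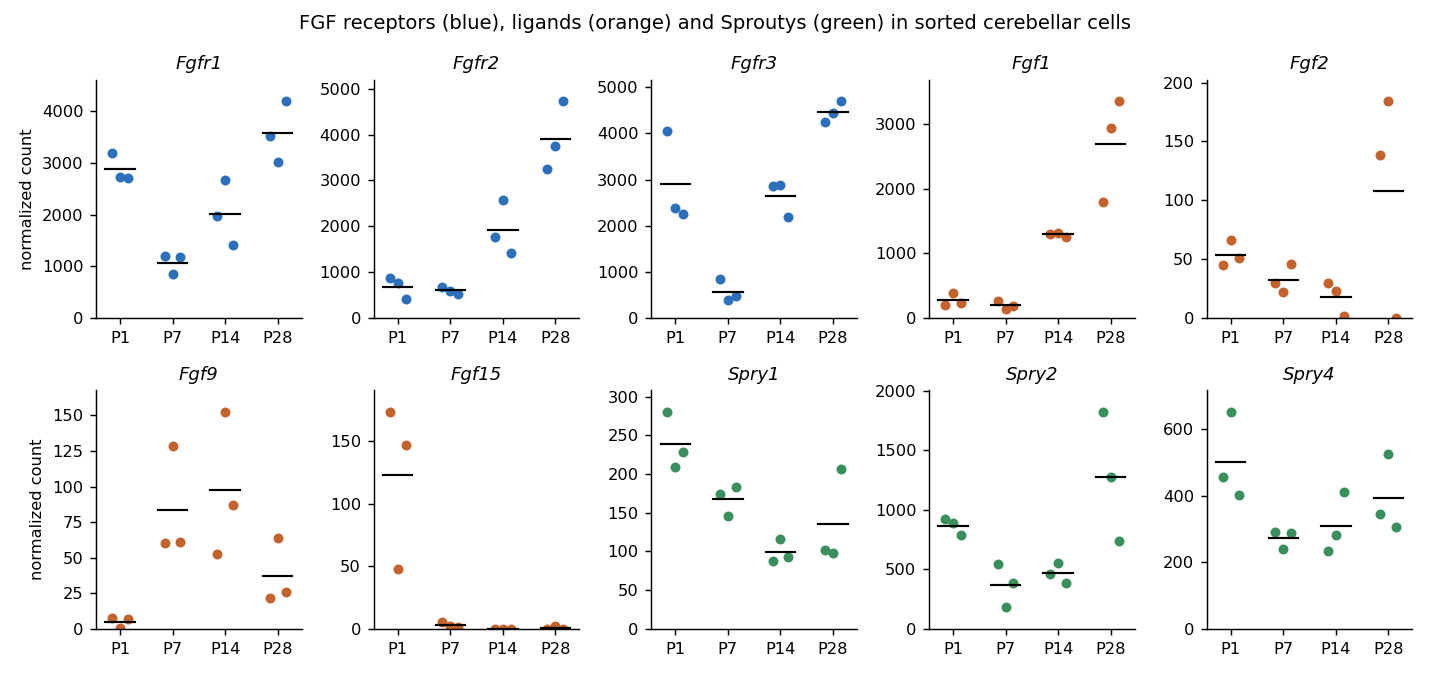
Normalized count (y axis, linear and starting at 0, scaled per gene) of the 10 genes at each age (x axis). Points are single libraries and black lines are means of 3. All P7 points of Fgfr3 lie below its other points, and Fgf15 is at 47.9 to 172.9 at P1 and at most 5.57 later.

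Astrocyte markers moved with Fgfr1 and Fgfr3 at P7, while Fgfr2 did not pass the test there. Of the 10 markers, 6 were lower and 1 was higher at P7 than at P1, with a median log2 change of -0.88. In the next step 8 were higher, with a median of 2.3, and from P14 to P28 8 were higher, with a median of 1.0. The medians over all 15464 genes tested were 0.037, -0.086 and -0.12 in these steps. Markers of Bergmann glia, the radial astrocytes of the cerebellum, summed to 67630 to 86880 at P1 and 15110 to 33760 at P7. Their sum was 32650 to 45400 at P14 and 72590 to 87820 at P28. Most of it was Ptprz1, at 50400 to 69200 at P1, 10600 to 24200 at P7 and 52100 to 60700 at P28. Of the 5 markers, 2 were lower at P7 than at P1, but they did not share a course. Gdf10 was 297 to 1540 at P1 and 869 to 1690 at P7, and Hopx was 129 to 323 and 171 to 372. From P1 to P28, 2 of the 5 were higher and 2 lower. Oligodendrocyte markers rose with Fgfr2 from P7 to P14, where 6 of 6 were higher with a median of 3.5. They went the other way from P14 to P28, where 5 of 6 were lower with a median of -2.3 while Fgfr2 was higher. Oligodendrocyte precursor markers had a lower sum in the P7 libraries, 3750 to 4614, than in the P1 libraries, 7309 to 11490. Of these 6 markers, 2 were lower in that step. Their sum was back at 7402 to 8509 in the P14 libraries but, unlike the receptors, was only 2461 to 2988 in the P28 libraries. Sums of interneuron lineage and proliferation markers were instead higher at P7 than at P1, and lower at P14 than at P7. The part of any of these cells in the receptor levels was not tested.

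The mix of the receptors also changed. To compare genes, each value was divided by the length of the exons of the gene in kb, and the share of each receptor in the sum of the 3 was taken. This share does not depend on the scaling of the libraries, and it was not tested. Fgfr3 held 52.3% ± 5.02 (SD, n = 3) at P1, then 31.5% ± 6.38 at P7, 49.2% ± 4.83 at P14 and then 45.9% ± 2.86 at P28. Its P7 libraries, at 38.8%, 27.2% and 28.4%, were all below the lowest share at another age, which was 42.7%. Fgfr2 held 8.67% ± 2.11 at P1 and then 24.2% ± 4.48 at P7, 24.2% ± 2.47 at P14 and finally 27.6% ± 2.48 at P28. The P1 libraries, at 8.66%, 10.8% and 6.57%, were below all later ones. Per kb, Fgfr2 itself had 66.5 ± 22.3 (SD, n = 3) at P1 and 58.8 ± 7.39 at P7, so its share was higher at P7 because Fgfr1 and Fgfr3 were lower. For Fgfr1 the shares were 39.0% ± 5.25, 44.3% ± 5.21, 26.5% ± 2.5 and 26.5% ± 2.44 in the order of age. Its P14 and P28 libraries overlapped and lay below all those of P1 and P7.

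**Figure D3:**
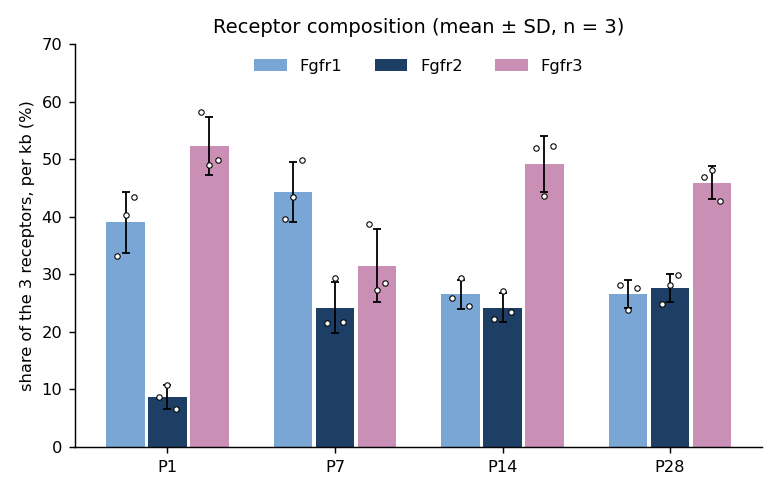
Share of Fgfr1, Fgfr2 and Fgfr3 in their sum per kb of exon (y axis, percent) at each age (x axis). Bars are means, error bars are SD and open points are the 3 libraries. The Fgfr2 bar is 8.67% at P1 and 24.2% to 27.6% later.

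The sum of the 3 receptors per kb was 762.5 ± 183 (SD, n = 3) at P1, then 248.0 ± 55.2 at P7, 758.5 ± 167 at P14 and then 1362 ± 151 at P28. P1 and P14 overlapped, with 631.9 to 972.2 and 585.4 to 919.3. The ratio of Fgfr3 to Fgfr1 per kb had a median of 1.21 at P1 and 0.627 at P7, where it was below 1 in every library. It was 2.01 at P14 and 1.67 at P28. That of Fgfr2 to Fgfr1 was 0.261, 0.546, 0.922 and 1.08 in the order of age. Without division by length, Fgfr3 had 4043, 2394 and 2258 at P1, where Fgfr1 had 3192, 2719 and 2715. Fgfr3 was then below Fgfr1 in P1 replicates 2 and 3, so the order of these receptors at P1 depends on the length used.

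Among the receptors Fgfr3 had the widest range of age means. The tested genes whose log2 values were most like it over the 12 libraries were Slc27a1 (Pearson r = 0.986), a fatty acid transporter, Ttyh1 (r = 0.979), a chloride channel family gene of glia, and Phlpp1 (r = 0.978), a phosphatase of Akt. Within the 10 genes, Fgfr1 and Fgfr3 had an r of 0.92 and Fgfr2 and Fgf1 an r of 0.95. These values are descriptions, since the libraries share 4 ages.

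The ligands did not move together, and per kb of exon the means of Fgf2, Fgf9 and Fgf15 were below that of every receptor at every age. Fgf1, an FGF without a signal peptide that can bind every FGF receptor, had normalized counts of 198.7, 395.1 and 234.0 at P1 and of 269.1, 138.7 and 193.0 at P7. Its counts were 1302, 1321 and 1254 at P14, and 1799, 2932 and 3343 at P28. The P1 and P7 libraries overlapped, all P14 libraries were above them and all P28 libraries were above those of P14. Fgf1 rose by 2.74 from P7 to P14 on the log2 scale (SE 0.31, limma adjusted p = 2.3e-05), a 6.45-fold higher mean. From P1 to P28 it rose by 3.30 (SE 0.31, limma adjusted p = 2.2e-06), a 9.75-fold higher mean. Both calls held in all 23 alternatives. The step from P14 to P28 was 1.01 (SE 0.31, limma adjusted p = 0.0412), and this call was lost when any 1 of 7 libraries was left out, namely P1 replicate 3, P7 replicate 3, any P14 replicate, or P28 replicate 2 or 3. The limma adjusted p was then 0.0510 to 0.111, within 0.00803 to 0.111 over all alternatives. From P1 to P7 the difference was -0.45, with a 95% interval of -1.11 to 0.21 (limma adjusted p = 0.511). Per kb of exon, Fgf1 went from 50.5 ± 19.2 (SD, n = 3) at P1 to 493 ± 146 at P28, where Fgfr1 had 361 ± 59.5. Without division by length the P28 means were 2691 for Fgf1 and 3568 for Fgfr1, so their order depends on the length used. As for Fgfr2, the rise from P7 to P14 coincided with that of the oligodendrocyte markers, and from P14 to P28 those markers were lower while Fgf1 was higher. Their part was not tested.

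Fgf15, the mouse counterpart of human FGF19 and a ligand of the embryonic hindbrain, was the ligand with the widest range. Its normalized counts at P1 were 172.9, 47.9 and 146.9, from 281, 67 and 194 reads. At P7 they were 5.57, 2.62 and 1.55, from 7, 2 and 2 reads. At P14 it had 0 reads in every library, and at P28 it had 2 reads in replicate 2 and 0 in the others. P1 therefore stood above all other ages without overlap. Fgf15 fell by 4.78 from P1 to P7 on the log2 scale (SE 0.84, limma adjusted p = 0.00286), and a pseudocount of 0.1 in place of 1 gave an adjusted p of 0.0504, within 1.32e-05 to 0.0504. From P1 to P28 it fell by 6.17 (SE 0.84, limma adjusted p = 7.01e-05), a call that held in all 22 alternatives. Such fitted values depend on the pseudocount. In the summed reads, scaled for depth, P1 was 37.5-fold above P7, with a 95% counting interval of 20.8 to 75.6, and 142-fold above P28, with an interval of 39.0 to 1170. Against P14 it was at least 38.3-fold higher, taking 3 reads per library as the limit that a count of 0 allows. These intervals cover counting error alone. Because Fgf15 passed the filter on low values only through P1, it had to differ between P1 and the other ages.

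The genes most like Fgf15 over the 12 libraries were Fat4 (r = 0.984), an atypical cadherin, Fndc3c1 (r = 0.972) and Gbx2 (r = 0.970), a homeobox gene of the anterior hindbrain. Proliferation markers did not fall with Fgf15 from P1 to P7, where 1 of 6 was higher and 0 were lower. Their sum was 7708 to 13660 at P1, then 18130 to 24280 at P7, 611.4 to 1092 at P14 and then 18.9 to 77.5 at P28. From P7 to P14, 6 of 6 were lower. The part of dividing cells in the Fgf15 values was not tested.

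Fgf9, which cerebellar neurons make, was low at P1 and moved opposite to Fgf15 between P1 and P7. Its normalized counts at P1 were 8.00, 0.714 and 6.82, from 13, 1 and 9 reads, and those at P7 were 60.5, 128.3 and 61.2. At P14 they were 53.0, 152.3 and 86.9, and at P28 they were 21.9, 63.7 and 25.7. All later libraries were above all P1 libraries, and the later ages overlapped. Fgf9 rose by 4.0 from P1 to P7 on the log2 scale (SE 0.78, limma adjusted p = 0.00553), a 16.1-fold higher mean, and this call held in all 22 alternatives. P28 was 2.79 above P1 (SE 0.78, limma adjusted p = 0.0134), but without P1 replicate 2, which had 1 read, the log2 difference was 2.02 with an adjusted p of 0.0604, within 0.00148 to 0.0686. The step from P7 to P14 was 0.18 with a 95% interval of -1.49 to 1.86 (limma adjusted p = 0.908). It became -0.069 under library totals alone and -0.20 without P14 replicate 2. The difference from P14 to P28 was -1.4 with an interval of -3.08 to 0.28 (limma adjusted p = 0.251). Granule neuron markers were higher at P7 than at P1, as Fgf9 was. Their sum was 517.3 to 1121 at P1, then 3311 to 5168 at P7, 8346 to 17850 at P14 and then 5429 to 6862 at P28, and 4 of 6 were higher at P7 than at P1. Gabra6, a receptor subunit of mature granule neurons, was at 0 in every P1 library. From P7 to P14 4 of the 6 were higher, while the Fgf9 libraries overlapped. Oligodendrocyte markers rose from P1 to P7 as well, with 6 of 6 higher. Choroid plexus and ependyma markers summed to 856.4 to 1918 at P1 and 48170 to 127600 at P7, with 2 of 6 higher and 1 lower. Those of the interneuron lineage summed to 1081 to 3679 and 4217 to 8555, with 2 of 7 higher. P7 replicate 2, with the most Fgf9 at P7, had the highest choroid plexus sum but the lowest interneuron sum. At P14 the most Fgf9 was in replicate 2 and the highest choroid plexus sum in replicate 1. The part of any of these cells in the Fgf9 values was not tested.

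Fgf2, another FGF without a signal peptide, was uneven at P28. It had normalized counts of 44.9, 66.4 and 50.7 at P1, of 29.5, 22.2 and 45.7 at P7, and of 29.7, 23.3 and 2.17 at P14. The P28 libraries gave 138.8, 184.0 and 0.0, from 95, 156 and 0 reads. P28 thus held both the highest libraries and the lowest one. None of the limma comparisons passed, with adjusted p between 0.631 and 0.891 and unadjusted p between 0.418 and 0.626. Without P28 replicate 3 the log2 difference from P14 to P28 was 3.59 (limma adjusted p = 0.0151), and without P28 replicate 2 it was -0.17 (adjusted p = 0.957), within 0.0151 to 0.996. Between P1 and P28 the log2 difference of -0.88 was 1.57 without P28 replicate 3. The libraries with the least Fgf2, P28 replicate 3 and P14 replicate 3, were also those with the least choroid plexus signal at their ages. Ttr, the transthyretin gene that marks choroid plexus, had normalized counts of 102000, 180000 and 17400 at P28 and 107000, 62300 and 796 at P14, in the order of replicates. At P7 Ttr was 60100, 126000 and 47100 while Fgf2 was 29.5, 22.2 and 45.7, and at P1 Ttr was 685, 289 and 221 while Fgf2 was 44.9, 66.4 and 50.7. The part of choroid plexus in the Fgf2 values was not tested. Nudt6, an antisense gene, shares 640 exon bases with Fgf2. Its mean went from 150 at P1 to 51.7, 27.4 and 27.0 at the later ages, and since the use of strand in the counting is not stated in the sources used here, reads of the shared bases cannot be told apart.

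Of the Sproutys, Spry2 fell from P1 to P7, as Fgfr1 and Fgfr3 did, and rose from P14 to P28, and no step of Spry1 or Spry4 passed in the limma fit of all libraries. Sprouty proteins are induced by receptor tyrosine kinase signalling and restrain the Ras and MAP kinase pathway. Spry2 had normalized counts of 927.1, 888.8 and 789.0 at P1 and of 547.0, 187.2 and 384.5 at P7. At P14 its counts were 464.9, 553.3 and 388.8, and at P28 they were 1822, 1277 and 742.4. All P7 libraries were below those of P1, P7 and P14 overlapped, and all P28 libraries were above those of P14. Spry2 fell by 1.35 from P1 to P7 on the log2 scale (SE 0.36, limma adjusted p = 0.0364). This call was lost when any 1 of 7 libraries was left out, namely any P1 replicate, P7 replicate 2 or 3, or P14 replicate 1 or 2, with adjusted p of 0.0515 to 0.168, within 0.0144 to 0.168 over all alternatives. Spry2 rose by 1.37 from P14 to P28 (SE 0.36, limma adjusted p = 0.0229). The adjusted p was 0.0630 without P14 replicate 1, 0.0878 without P14 replicate 3 and 0.0679 without P28 replicate 1, within 0.00164 to 0.0878. From P7 to P14 the difference was 0.45, with a 95% interval of -0.33 to 1.23 (limma adjusted p = 0.448), and P28 exceeded P1 by 0.47, with an interval of -0.31 to 1.25 (adjusted p = 0.337).

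Spry1 had normalized counts of 279.9, 208.6 and 228.7 at P1 and of 174.4, 145.3 and 182.9 at P7. It had 87.9, 116.4 and 93.4 at P14, and 102.3, 97.9 and 206.9 at P28. Each age up to P14 was below the one before it without overlap, and P28 replicate 3 stood above the other P28 libraries. The log2 difference was -0.51 from P1 to P7 (95% interval -1.31 to 0.30, limma adjusted p = 0.561) and -0.75 from P7 to P14 (interval -1.56 to 0.05, adjusted p = 0.189). From P14 to P28 it was 0.37 (interval -0.44 to 1.18, adjusted p = 0.549). P28 was below P1 by -0.89 (interval -1.70 to -0.08), with a limma adjusted p of 0.0815. Without P28 replicate 3 that difference was -1.24 with an adjusted p of 0.0135, within 0.0108 to 0.231.

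Spry4 had normalized counts of 455.3, 650.2 and 400.6 at P1, 291.4, 239.5 and 288.4 at P7, 235.1, 281.4 and 410.5 at P14, and 344.9, 523.7 and 305.6 at P28. The P7 libraries were all below those of P1, and all other neighbouring ages overlapped. The log2 difference from P1 to P7 was -0.85 (95% interval -1.49 to -0.21, limma adjusted p = 0.112). This step passed by DESeq2 (adjusted p = 0.049) and in limma with only these ages in the fit (adjusted p = 0.0244), within 0.0244 to 0.384 over the alternatives. That from P7 to P14 was 0.14 (interval -0.50 to 0.78, adjusted p = 0.8), and it became -0.11 under library totals alone and -0.08 without P14 replicate 3. From P14 to P28 it was 0.34 (interval -0.30 to 0.98, adjusted p = 0.479), and P28 differed from P1 by -0.37 (interval -1.01 to 0.27, adjusted p = 0.363). Under library totals alone the latter was -0.80 with a limma adjusted p of 0.0422, within 0.0422 to 0.739.

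The Spry2 pattern was most like that of Ptpra (r = 0.949), a receptor phosphatase, Morn4 (r = 0.940) and Ednrb (r = 0.931), the endothelin B receptor of astrocytes. Per kb of exon, Spry2 was the highest Sprouty at every age, with 416 ± 34.2 (SD, n = 3) at P1 and 614 ± 259 at P28. Spry4 had 106 ± 27.6 and 82.3 ± 24.4, and Spry1 had 82.3 ± 12.7 and 46.7 ± 21.2, at these ages. Annotated antisense transcripts share 998 exon bases with Fgfr3, 761 with Fgf15 and 710 with Spry1, and without the strand their reads cannot be told apart.

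The steps can be set side by side, though neighbouring steps share an age and its libraries. From P1 to P7, 4 of the 10 genes were lower (Fgfr1, Fgfr3, Fgf15 and Spry2), where 4.24% of all 15464 genes tested were lower, and 1 was higher (Fgf9), where 3.47% of all genes were. Fgf15 passed the filter only through P1 and had to differ from it, and without it 3 of the other 9 genes were lower. From P7 to P14, 4 were higher (the 3 receptors and Fgf1), where 10.8% of all genes were higher, and 0 were lower, where 10.0% were. From P14 to P28, 4 were higher (Fgfr1, Fgfr2, Fgf1 and Spry2), where 5.68% were higher, and 0 were lower, where 8.76% were. In this last step 0 were called without P14 replicate 1, 0 without P14 replicate 3 and 2 without P28 replicate 3, so its count rests on single libraries. Over the whole span from P1 to P28, 3 were higher (Fgfr2, Fgf1 and Fgf9), where 14.6% were higher, and 1 was lower, where 20.0% were. The latter was Fgf15, which the filter made sure to differ, so nothing is read from that count. Of the genes lower from P7 to P14, limma had 1 at an unadjusted p under 0.05 (Fgf15, at 0.0338), edgeR called 0 and DESeq2 called 1. The count of genes lower from P14 to P28 was 0 by limma at an unadjusted p under 0.05, by edgeR and by DESeq2.

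The median log2 difference of the 10 genes was -0.80 from P1 to P7, 0.32 from P7 to P14, 0.81 from P14 to P28 and 0.39 from P1 to P28. Without Fgf15, whose fitted values rest on libraries at 0, the medians were -0.76, 0.45, 0.86 and 0.47. Those of all genes tested were 0.037, -0.086, -0.12 and -0.24. In the mean normalized count, 6 of the 10 genes were highest at P28 and 0 at P7, and 6 were lowest at P7 and 0 at P28. The same counts were not taken over all genes tested, so nothing is read from them. Fgf2 was among those highest at P28 although 1 of its P28 libraries was at 0. Fgf1 and Fgfr2 were among those lowest at P7 although their P1 and P7 libraries overlapped.

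**Figure D4:**
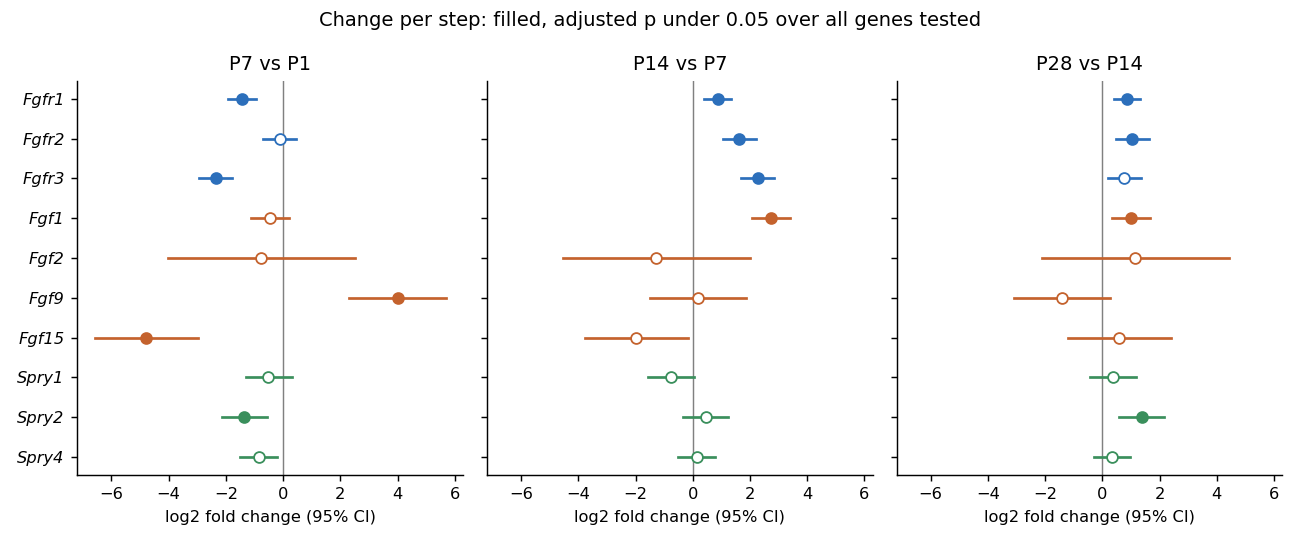
Log2 fold change (x axis) of the 10 genes (y axis) from each age to the next, from limma on log2(value + 1). Lines are 95% intervals, and filled circles passed at an adjusted p of 0.05 across the 15464 genes tested. In the first step 4 filled circles lie left of 0, where 4.24% of all genes tested were lower. One of them is Fgf15, which passed the filter only through P1 and had to differ from it. In the later steps all filled circles lie right of 0.

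The rest of the pathway was described with 82 further genes in 5 lists, of which 69 were tested. From P1 to P7, limma called 0 higher and 11 lower, and among the higher genes 4 had an unadjusted p under 0.05, 0 were called by edgeR and 3 by DESeq2. Of all genes tested, 3.47% were higher and 4.24% lower in this step. From P7 to P14, 17 of the 69 were higher, where 10.8% of all genes were, and 9 were lower, where 10.0% were. In the last step 10 were higher, where 5.68% of all genes were, and 8 were lower, where 8.76% were. Over the whole span 19 were higher, where 14.6% were, and 16 were lower, where 20.0% were. The counts of lower genes in the last 2 steps and over the whole span lie near the share in the whole table and are no result about the pathway. The count of the first step was 5 to 16 when single libraries were left out, with 5 without P1 replicate 1 and 5 without P7 replicate 2, 6 without P1 replicate 2, 6 without P7 replicate 1 and 7 without P7 replicate 3.

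Feedback inhibitors and ETS targets, the genes that stand closest to the output of the pathway, had 13 tested members. From P1 to P7, 4 were lower (Spred1, Dusp7, Etv1 and Etv5), where 4.24% of all genes tested were, and limma called 0 higher, with 1 at an unadjusted p under 0.05, 0 called by edgeR and 1 by DESeq2. In the second step 5 were higher (Spred1, Dusp7, Etv1, Etv4 and Etv5), where 10.8% of all genes were, and 1 was lower (Dusp4), where 10.0% were. In the last step 3 were higher (Spred1, Dusp4 and Etv5), where 5.68% of all genes were. Etv5, an ETS factor induced by FGF, had a mean of 2153 ± 337 (SD, n = 3) at P1, then 635.5 ± 155 at P7, 1955 ± 85.4 at P14 and then 3678 ± 511 at P28. Its log2 changes were -1.78 (SE 0.20, limma adjusted p = 9.94e-05), 1.65 (SE 0.20, adjusted p = 3.73e-05) and 0.90 (SE 0.20, adjusted p = 0.00845). The related Etv1 fell by 1.33 (SE 0.25, limma adjusted p = 0.00488) and then rose by 3.06 (SE 0.25, adjusted p = 1.94e-06). In the step of that rise 4 of 6 granule neuron markers were higher and 1 was lower, and 6 of 6 oligodendrocyte markers were higher. The part of these cells in the Etv1 values was not tested. Spred1, a Sprouty-related inhibitor of Ras signalling, fell by 0.92 and then rose by 0.87 and 0.73, with limma adjusted p of 0.00166, 7.34e-04 and 0.00628. Etv5 and Spred1 thus had their lowest libraries at P7, as Fgfr3 did. This course was not particular to them. Of the 10 astrocyte markers, 6 were lower and 1 was higher in the first step, and 8 were higher in each later step. The part of the cell mix in the values of Etv5 and Spred1 was not tested.

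**Figure D5:**
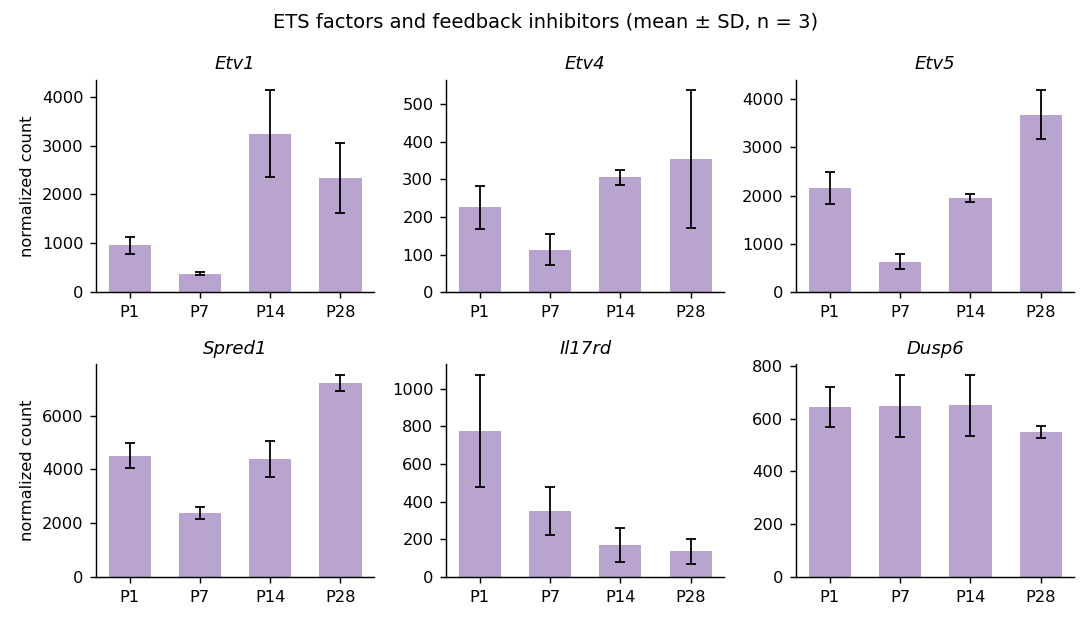
Mean normalized count (y axis, starting at 0) of 3 ETS factors and 3 feedback inhibitors at each age (x axis), with SD over 3 libraries as error bars. Etv5 was 635.5 at P7 and 3678 at P28, whereas Dusp6 was between 549.4 and 651.3 at every age. Etv4, Il17rd and Dusp6 were picked for this plot after their values were seen.

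Other targets did not share this course. Dusp6, an ERK phosphatase that FGF signalling induces in many tissues, had means of 644.8, 647.8, 651.3 and 549.4 in the order of age and passed in no step, with log2 differences of -0.00, 0.01 and -0.23. The SE of each was 0.21. Il17rd, an FGF antagonist, had means of 777.2, 349.6, 171.2 and 135.6, and was lower at P28 than at P1 by a log2 change of -2.56 (SE 0.48, limma adjusted p = 0.001). Dusp4 was highest at P7, with means of 323.9, 723.5, 70.35 and 175.8. Its P7 libraries, at 558 to 828, were above those of P1, at 197 to 413, but that step did not pass (limma adjusted p = 0.0996). From P7 to P14 it fell by 3.47 (SE 0.41, limma adjusted p = 3.7e-05). Dusp6, Il17rd, Dusp4, Dusp7 and Etv4 are named here after their values were seen.

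Among the heparan sulfate genes, all 21 were tested, and 6 were lower at P7 than at P1, where 4.24% of all genes were. In that step limma called 0 higher, with 1 at an unadjusted p under 0.05, 0 called by edgeR and 1 by DESeq2. In the second step 7 were higher, where 10.8% of all genes were, and 5 lower, where 10.0% were. In the last step 6 were higher, where 5.68% of all genes were, and 3 lower, where 8.76% were. The proteoglycans Gpc6, Sdc3 and Sdc4 were in the higher groups of both later steps. Gpc6 had means of 1616 ± 737 (SD, n = 3), 805.0 ± 77.4, 4003 ± 362 and 8167 ± 1200 in the order of age, with a log2 rise of 2.31 from P7 to P14 (SE 0.25, limma adjusted p = 1.37e-05). Sdc4 rose by 2.42 in that step (SE 0.28, limma adjusted p = 3.09e-05). Of the adaptors and the Ras and MAP kinase cascade, 0 of 19 were called from P1 to P7, 2 were higher (Map2k1 and Mapk3) and 1 lower (Sos1) from P7 to P14, and 1 was higher (Gab2) and 1 lower (Mapk3) from P14 to P28. These counts lie near the shares of all genes given above. In the first step limma had 1 of these higher and 2 lower at an unadjusted p under 0.05, edgeR called 0, and DESeq2 called 1 higher and 1 lower. The adaptors Gab1 and Ptpn11 had the highest means of this list over all libraries, 2310 and 1390, and passed in no step, and Gab2 rose by 0.82 from P14 to P28.

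Of the other FGF genes, 7 of 18 were tested, and the most abundant were the homologous factors Fgf11 and Fgf12, which act inside cells rather than as secreted ligands. Fgf12 rose by 1.4 from P7 to P14 (SE 0.28, limma adjusted p = 0.00249) and Fgf14 by 2.30 (SE 0.33, adjusted p = 1.86e-04). Fgf13 fell by 2.05 from P14 to P28 (SE 0.47, limma adjusted p = 0.0108). The fourth receptor, Fgfr4, had a mean of 2.65 per kb of exon over all libraries, with normalized counts of 21.5 at P1, then 14.2 at P7, 1.76 at P14 and then 0.0 at P28. Among the 9 other receptors, coreceptors and binding proteins, 1 was lower from P1 to P7, where 4.24% of all genes tested were. From P7 to P14, 1 was higher, where 10.8% of all genes were, and 2 were lower, where 10.0% were. Of the lower genes in that step edgeR called 0 and DESeq2 called 1. From P14 to P28, 1 was lower, where 8.76% of all genes were. With 9 genes these counts are no result about the list. The gene lower in the last step was Flrt3, a membrane protein that binds FGF receptors, which fell by 1.91 (SE 0.24, limma adjusted p = 4.67e-04). The related Flrt2 had means of 1358, 1121, 625.0 and 451.6 in the order of age and passed in no single step.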

How the data were processed

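RNA of GFP-positive cerebellar cells was sequenced from paired ends in 12 libraries, 3 per age (P1, P7, P14, P28), prepared with the Trio RNA-Seq kit. The authors aligned with STAR to mm10 and obtained gene counts on UCSC transcripts with GenomicAlignments and GenomicFeatures, which DESeq2 then normalized. The submitters' processing notes name STAR 2.5.0a, DESeq2 1.30.1, FastQC 0.11.7 and MultiQC 1.11. The use of strand and the handling of shared reads are not given in the sources used here. The deposited values are a signal, gene counts divided by a size factor per library, and 100% of them came out as whole reads (tolerance 0.001) when divided by the value of 1 read. The recovered reads gave 6399499 to 14733985 per library. All column names carry P28 whatever the age, so the ages rest on the labels, and 0 columns were left unused. Of the symbols, 27 had been turned into dates.

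Genes that reached a value of 10 in 3 or more libraries, 15464 in all, were tested with limma 3.58.1 (R 4.3.3) on log2(value + 1), in one fit of all 12 libraries with a trend of the variance and Benjamini-Hochberg adjustment over all genes tested. A gene was called at an adjusted p under 0.05. Log2 fold changes are on the log2(value + 1) scale, which understates the change of low genes. All 10 members were tested, and 7 had at least 10 reads in every library. edgeR 4.0.16 and DESeq2 1.42.0 on the recovered reads were alternatives, with other scalings, pseudocounts, filters, samples in the fit, a replicate block, the study's own threshold and single libraries left out. The fits were tested on simulated counts. Libraries of a group all differed by more than sampling noise (chi-square per degree of freedom 9.81 to 75.08). Lengths were the union of GENCODE M21 exons, which may differ from the transcripts the authors counted on. Intervals of Fgf15 are exact and cover counting error only.

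The members, the pathway lists and the markers were chosen with earlier results of these data known. Besides the members, the text names in each pathway list the 2 genes with the highest mean and the 2 with the smallest p of the moderated F-test, and the 3 genes most correlated with the receptor, ligand and Sprouty of widest range. Other pathway genes named were chosen after their values were seen.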

Additional observations from a re-analysis of the deposited data

How the results depend on the processing

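Of the 10 genes, 5 were called from P1 to P7, but 3 when every library had to hold 10 reads of a gene, since Fgf9 and Fgf15 then drop out, and 4 to 5 when single libraries were left out. From P14 to P28 the 4 calls became 1 under library totals alone, 1 with only the ages compared in the fit and 0 without the variance trend, and 0 to 5 without single libraries. From P1 to P28 the 4 calls became 2 under that filter, for the same reason. Of the pathway genes, the 11 called from P1 to P7 became 18 by DESeq2, 27 with only the ages compared, 6 without the variance trend, 20 under the study's threshold and 5 to 16 without single libraries. The 18 from P14 to P28 became 9 with only the ages compared. The rise of the Fgfr2 share from P1 to P28, 19.0 points, was 22.3 with the longest transcript as length and 22.1 without division by length. For the changed pathway counts the cause was not tested.

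Library totals alone moved the median of all genes to 0.095, -0.341, -0.347 and -0.660 in the order P7 against P1, P14 against P7, P28 against P14 and P28 against P1, from 0.0369, -0.0864, -0.122 and -0.235. Under it Fgfr1 turned to -0.13 from P1 to P28, Fgf9 to -0.069 and Spry4 to -0.11 from P7 to P14. The Fgf2 difference from P1 to P28 was 0.06 with a pseudocount of 10, 1.03 by edgeR and 1.00 by DESeq2. Directions also turned without single libraries, where the log2 difference of Fgfr2 from P1 to P7 was -0.43 to 0.081, of Fgf2 from P14 to P28 -0.17 to 3.59 and from P1 to P28 -2.2 to 1.57, of Fgf9 from P7 to P14 -0.2 to 0.55 and of Spry4 from P7 to P14 -0.08 to 0.32.

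With the replicate number as a block, 5 members were called from P1 to P7, 4 from P7 to P14, 4 from P14 to P28 and 5 from P1 to P28. In the step from P14 to P28 Fgf1 lost its call under the block (limma adjusted p = 0.0552) and Fgfr3 gained one (0.0451), and Fgfr3 gained that from P1 to P28 (0.0392). Same-numbered libraries correlated at -0.029 to 0.139, with 1 of 18 pairs over 0.1, and differently numbered ones at -0.105 to 0.054. The labels do not say whether the numbers pair the libraries, and correlations this low cannot exclude a weak pairing. At this depth Fgf15 after P1 and Fgf9 at P1 rest on 0 to 13 reads per library. Fgf2, Fgf9 and Fgf15 have no value under the filter of 10 reads in each library, nor has Fgf15 from P14 to P28 without P28 replicate 2.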
